A study of Mus musculus with 12 samples.

Results

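A set of 11 genes, of 25192 in the deposited table, was close to silent in untreated RAW264.7 cells and was read in every library after lipopolysaccharide (LPS). The genes are AA467197, Acp3, Col5a3, Dusp8, Fpr2, Gdnf, Gm44386, Gstp3, Mt2, Pdpn and Slfn1. They were chosen by read counts alone: at most 3 reads in each of the 4 control libraries and at least 100 in each of the 4 LPS libraries. In all 20 genes lay within both limits, and 9 of them were left out by the rule because of their symbols. The rule left out symbols starting with Il, Csf, Ccl, Cxcl, Mmp, Tnf, Ptg, Lt or Bcl2. It also left out Lif, Lcn2, Saa3, Urah, Prss56, Gprc5a and Serpinb2. All 11 passed the filter on low counts, which they could pass through the LPS libraries alone.

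RAW264.7 is a transformed mouse macrophage-like line, and poly(A) RNA was sequenced from 3 groups of 4 libraries. The control group is named only as such, with no agent listed. The LPS group, called the model group there, had 1 µg/mL LPS for 24 h. The ferulic acid group had 10 µM ferulic acid, a plant phenolic acid, for 12 h and then LPS for 24 h. Being transformed, the line is a limited model of primary macrophages. Whether a group's libraries are separate cultures is not stated, so p-values measure the spread between libraries, which may be technical.

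LPS is a component of the outer membrane of Gram-negative bacteria and is sensed by Toll-like receptor 4. Signals from this receptor reach the transcription factors NF-kB, AP-1 and IRF3. Some LPS-induced genes sit in open chromatin and respond at once, while others are closed at rest and need remodelling or newly made factors before they are transcribed. The contrast of LPS with control chose the genes here, so their rise is given as a description and is not tested. Ferulic acid plus LPS against LPS alone is tested, because no ferulic acid library was used to choose them. The LPS libraries were used, through the limit of 100 reads. That limit favours genes whose counts happened to be high in these libraries. The comparison therefore leans towards lower values with ferulic acid, to an extent that was not tested.

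Totals ran from 32548423 to 49961581 counts per library. A count of 0 in a control library allows up to 3 counts, or 0.0619 to 0.0876 CPM (counts scaled to library size), and intervals and floors cover counting error only. Of 9 macrophage markers, 8 had a mean of at least 1 FPKM (fragments scaled to gene length and library size) in every group, and Mertk had no reads in control and ferulic acid libraries. The 9 summed to 3966 to 4338 FPKM in control, 1476 to 1700 with LPS and 1211 to 1838 with ferulic acid plus LPS, and they did not move alike. From control to LPS the means of Lyz2 were 2781 and 245 FPKM, of Csf1r 273 and 18.2, of Fcgr1 39.0 and 14.8 and of Spi1 87.2 and 67.7. Those of Adgre1 were 17.8 and 85.2 FPKM, of Cd14 255 and 493, of Cd68 616 and 649.6 and of Itgam 26.7 and 29.1. Of the markers of other cell types, the 3 hepatocyte genes Alb, Apoa1 and Ttr summed to 4.43 to 14.2 FPKM in control libraries and had no reads in the other 8. The 6 neutrophil genes found summed to 0.0770 to 0.330 FPKM in control, 2.91 to 3.58 with LPS and 2.07 to 5.11 with ferulic acid plus LPS, S100a8 alone reaching a mean of 1 FPKM, in both LPS groups. The 3 T cell genes found summed to 1.81 to 2.14 FPKM in control, 9.18 to 9.77 with LPS and 6.15 to 9.57 with ferulic acid plus LPS, with Lck alone reaching a mean of 1 FPKM and no Cd4 reads in the 8 libraries given LPS. The part of these lists in the results was not tested. Ferulic acid libraries 1 and 4 stood apart on the second principal component of log2 CPM (scores -44.0 and -76.6, against 25.6 and 7.56 for libraries 2 and 3 and 12.5 to 41.3 with LPS). Ribosomal protein genes took 21.7% and 21.8% of the reads in libraries 1 and 4, 13.6% and 17.2% in libraries 2 and 3, and 14.6% to 16.8% in the LPS libraries. In bulk RNA, fewer cells of a kind and less RNA per cell cannot be told apart.

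The 11 genes have unlike roles. At the cell surface, Fpr2 is a G protein-coupled receptor for formyl peptides and other inflammatory ligands, Pdpn encodes podoplanin, a mucin-type glycoprotein that binds the platelet receptor CLEC-2, and Acp3 encodes an acid phosphatase that can also release adenosine from AMP. The secreted products are the neurotrophic factor Gdnf and Col5a3, the alpha 3 chain of the fibrillar type V collagen. Inside the cell, Dusp8 encodes a phosphatase of the stress-activated MAP kinases and Slfn1 a schlafen protein first described in mouse thymocytes. Mt2 encodes a zinc-binding metallothionein and Gstp3 a glutathione S-transferase of the Pi class. AA467197, also named Nmes1, encodes a small protein whose human counterpart is a mitochondrial respiratory chain protein, and the microRNA gene Mir147 lies inside it on the same strand in GENCODE M21. Gm44386 is a long intergenic non-coding RNA in the same annotation.

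Promoter windows of 300 bases, around the transcript start (RefSeq, GRCm38.p6), were found for 10 of the 11 genes, Gm44386 being the exception, and Gdnf has a pair of them. The deposited counts are from build GRCm39, so the windows were matched by symbol, and Acp3 by its earlier symbol Acpp. Of the 11 windows, 2 held the AP-1 motif TGANTCA (AA467197 and Mt2), against 7.81% of 32851 windows of all genes. The window of Dusp8 held the cyclic AMP response element TGACGTCA at 2 places, and 1.79% of all windows held it at all. Slfn1 had the single match to the NF-kB consensus (4.51% of all windows). The C/EBP motif TTGCNNAA was in the windows of Gstp3 and Mt2 (10.8% of all windows). TATAAA was in that of Fpr2 and in 1 of the pair of Gdnf (13.6%). The interferon response element core (GAAA, any 2 bases, GAAA) was in none (3.44%). Both strands were searched and in these 11 windows no matches overlapped. A match describes letters in a window, not bound sites, and no motif was common to more than 2 of the 11 windows.

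The 5 windows shown are those with an AP-1, CRE or NF-kB match, and that of Col5a3, the gene with the largest rise in mean between LPS and ferulic acid plus LPS, which had no match. Each is written 5′ to 3′ on the gene's strand, with matched motifs in capitals. The window of Dusp8 (chr7:142095235-142095534, minus strand) has its matches starting at positions -107 and -63, counted from 0 at the first transcribed base. That of AA467197 (chr2:122637637-122637936, plus strand) has its AP-1 match at -73. That of Mt2 (chr8:94172368-94172667, plus strand) has AP-1 and C/EBP matches, and that of Slfn1 (chr11:83116570-83116869, plus strand) has the NF-kB match at -43. The window of Col5a3 is chr9:20815018-20815317 on the minus strand.
Dusp8: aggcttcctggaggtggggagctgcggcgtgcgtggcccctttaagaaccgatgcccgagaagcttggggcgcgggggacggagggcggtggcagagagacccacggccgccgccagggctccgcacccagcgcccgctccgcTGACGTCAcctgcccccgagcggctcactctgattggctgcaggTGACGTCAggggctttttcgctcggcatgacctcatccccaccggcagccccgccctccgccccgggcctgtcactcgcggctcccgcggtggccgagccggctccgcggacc
AA467197: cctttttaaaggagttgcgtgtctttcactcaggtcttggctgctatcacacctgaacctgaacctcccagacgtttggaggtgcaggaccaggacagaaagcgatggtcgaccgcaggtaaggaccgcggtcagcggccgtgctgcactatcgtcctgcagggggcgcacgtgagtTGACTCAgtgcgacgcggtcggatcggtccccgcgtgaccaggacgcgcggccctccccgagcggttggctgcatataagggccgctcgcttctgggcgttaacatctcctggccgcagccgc
Mt2: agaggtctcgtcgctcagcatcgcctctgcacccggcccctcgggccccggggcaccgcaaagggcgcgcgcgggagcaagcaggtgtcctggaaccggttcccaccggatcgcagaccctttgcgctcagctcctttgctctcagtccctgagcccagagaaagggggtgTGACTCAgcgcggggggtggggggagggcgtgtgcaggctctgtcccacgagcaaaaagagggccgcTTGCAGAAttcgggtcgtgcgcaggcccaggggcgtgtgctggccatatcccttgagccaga
Slfn1: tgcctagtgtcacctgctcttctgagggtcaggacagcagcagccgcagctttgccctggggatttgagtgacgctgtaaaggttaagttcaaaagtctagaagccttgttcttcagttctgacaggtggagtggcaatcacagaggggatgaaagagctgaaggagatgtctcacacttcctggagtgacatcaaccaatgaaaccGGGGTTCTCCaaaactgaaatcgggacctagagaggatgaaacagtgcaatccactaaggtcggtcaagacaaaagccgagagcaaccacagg
Col5a3: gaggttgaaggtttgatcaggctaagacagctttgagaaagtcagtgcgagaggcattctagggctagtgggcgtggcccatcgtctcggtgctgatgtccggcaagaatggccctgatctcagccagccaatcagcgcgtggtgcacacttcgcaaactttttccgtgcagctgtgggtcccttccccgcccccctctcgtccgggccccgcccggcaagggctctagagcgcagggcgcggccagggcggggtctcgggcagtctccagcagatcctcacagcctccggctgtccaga

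In control cells, 5 of the 11 genes (Col5a3, Fpr2, Gdnf, Gstp3 and Slfn1) had 0 reads in all 4 libraries. Of the others, AA467197, Acp3 and Mt2 had 2 reads over the 4 libraries, Gm44386 had 3, all in library 3, Dusp8 had 4 and Pdpn had 5. The whole set together took 1 to 6 reads per control library. With LPS it took 4310 to 6419 reads per library, or 120 to 136 CPM, and with ferulic acid plus LPS 4138 to 6845, or 118 to 147 CPM, unscaled by TMM. The summed level of the set thus overlapped between the latter groups. Col5a3 gave 4431 reads over the LPS libraries and 6917 over the ferulic acid libraries. The sum therefore does not describe the level of the other genes.

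After LPS the genes covered a wide range of levels per length. Gm44386 was highest at 29.7 ± 6.91 FPKM (SD, n = 4), and AA467197 followed at 15.4 ± 2.93 FPKM. Mt2 stood at 9.93 ± 2.76, Fpr2 at 5.79 ± 0.342 and Pdpn at 4.67 ± 1.42 FPKM. Below these the means lay close together: Col5a3 at 4.03 ± 0.708, Gstp3 at 3.74 ± 0.369 and Dusp8 at 3.43 ± 0.848 FPKM differed by less than the SD of Col5a3 or Dusp8. Acp3 at 2.52 ± 0.180, Slfn1 at 1.63 ± 0.153 and Gdnf at 1.22 ± 0.299 FPKM were lowest. Among genes with any LPS reads, Gm44386 lay at the 92.2 percentile of mean FPKM and Gdnf at the 56.7 percentile, so the set spans moderate to high abundance.

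The folds over control are set by few control reads. Col5a3, with 4431 LPS reads against 0, was at least 1423-fold higher with LPS in unscaled CPM, taking 3 counts over the 4 control libraries as the floor. On the same floor Fpr2 was at least 389-fold, Gdnf at least 239-fold, Gstp3 at least 176-fold and Slfn1 at least 159-fold higher. These are lower bounds, and a larger bound reflects more LPS reads. AA467197 was higher by 1437-fold (95% counting interval 397 to 11870) and Acp3 by 1452-fold (95% counting interval 402 to 11993). Gm44386 was higher by 835-fold (95% counting interval 285 to 4051), Dusp8 by 664-fold (95% counting interval 259 to 2438), Mt2 by 458-fold (95% counting interval 126 to 3784) and Pdpn by 271-fold (95% counting interval 116 to 834). The intervals are very wide, since they rest on 2 to 5 control reads, and the size of each fold is little known.

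**Figure D1:**
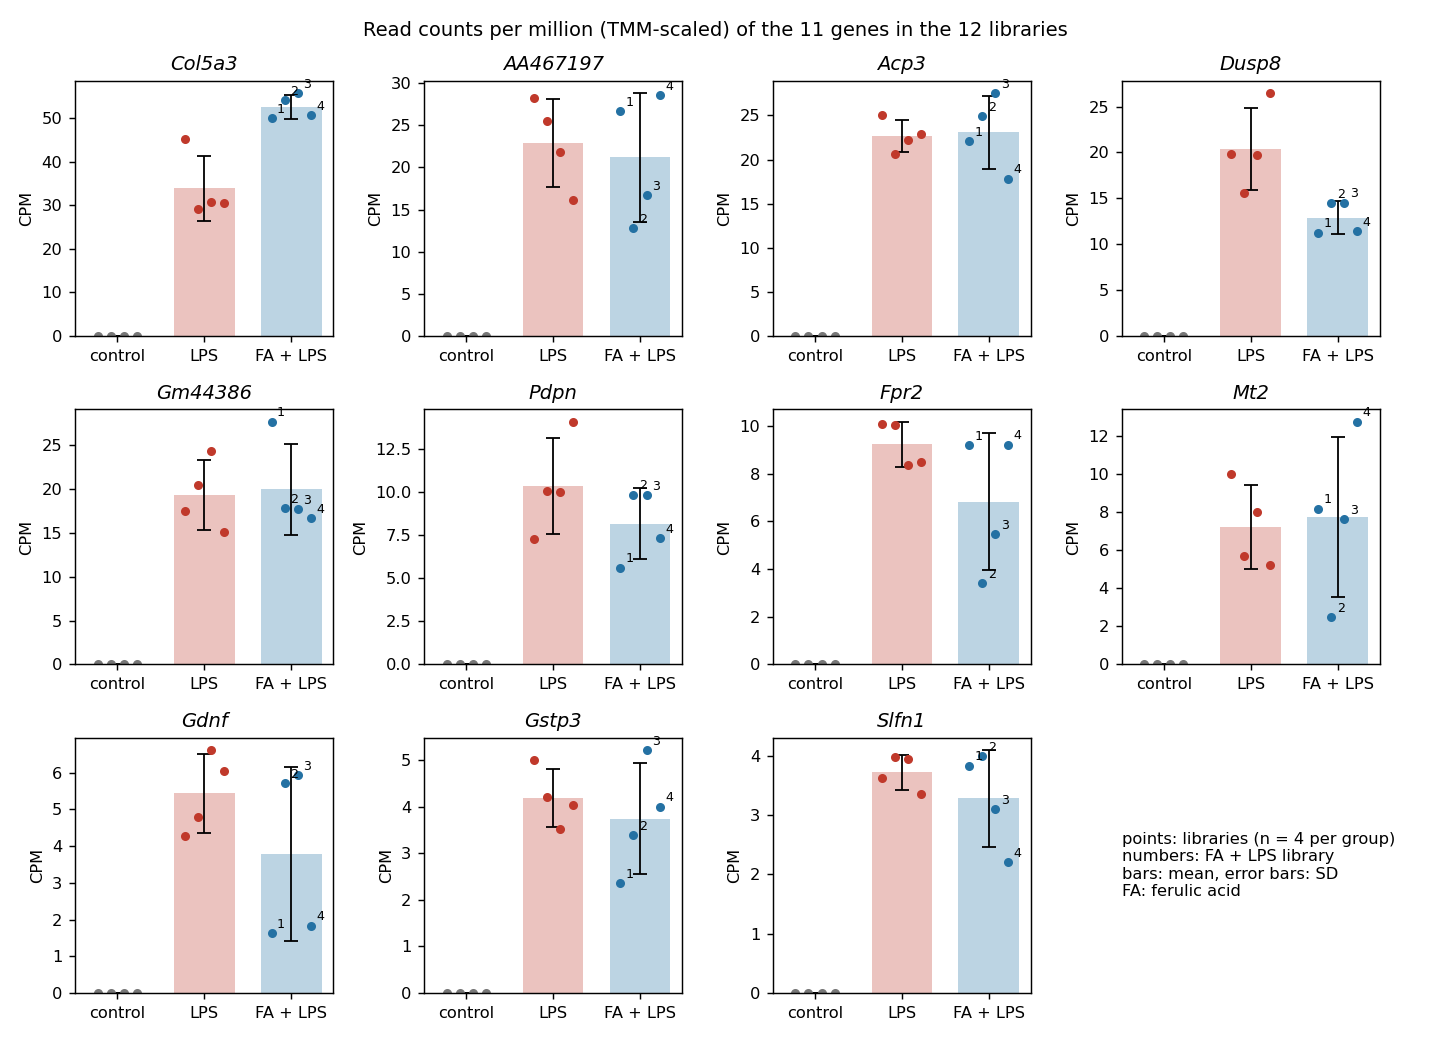
CPM (TMM-scaled, linear axes from 0) of the 11 genes in the libraries of the 3 groups, with bars at the mean, error bars of 1 SD (n = 4) and a point per library. Control points lie at or near 0 throughout, and the LPS and ferulic acid points overlap for every gene except Col5a3 and Dusp8.

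The limits of the rule left near neighbours on both sides. Slfn1 was the nearest inside, with a smallest LPS count of 100, then Gdnf with 118, Gstp3 with 121 and Mt2 with 163. Just outside, with at most 3 reads in any control library, 1700012B09Rik had a smallest LPS count of 98, Csta3 92, Tcp11 91 and Heatr9 77. On the control side, Gstt4, Ptprn, Cstdc4 and Hunk had up to 4 reads in a control library and at least 885, 634, 429 and 310 reads in each LPS library. Genes on either side of each limit thus had like counts.

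Most of the set was also read at depth after ferulic acid pretreatment. In the ferulic acid libraries, which the rule did not use, 7 of the 11 genes had at least 100 reads in each library and 10 had at least 50. Among all 9030 genes with at least 100 reads in each LPS library, 95.4% reached 100 in each ferulic acid library. The 4 genes of the set that did not were those nearest to the limit, Mt2, Slfn1, Gstp3 and Gdnf, so the count depends on where the limit lies. Mt2 missed it with 94 reads in library 2, Gstp3 with 58 in library 1, and Slfn1 with 94 and 60 in libraries 1 and 4. Gdnf had 40 and 50 reads in libraries 1 and 4 against 218 and 240 in libraries 2 and 3. The control values of the same genes were 0 reads, or 2 for Mt2.

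Ferulic acid plus LPS was set against LPS alone to see whether pretreatment changed how far these genes came on. None of the 11 passed at an adjusted p under 0.05 in edgeR's quasi-likelihood test over 14065 genes, where 0.284% of all genes tested did (0.0853% higher and 0.199% lower). Against control all 11 were higher with ferulic acid plus LPS, as 35.8% of all genes were, but the control limit had fixed that direction and nothing is read from it. The smallest adjusted p-values were those of Col5a3 (0.0860), which was higher in every ferulic acid library than in any LPS library, and Dusp8 (0.112), which was lower in every one. At an unadjusted p under 0.05 these 2 of the 11 passed, against 23% of all genes, and these 2 had no overlap between the groups, against 7.02% of all genes. With DESeq2 the same pair was called, where 7% of all genes were. With limma-voom and library weights Gdnf was called as well, making 3 of the 11, near the 24.2% of all genes called that way. With limma on log2(FPKM + 1) or log2(FPKM + 0.1) 0 of the 11 were called. The median log2 fold change was -0.16 over the 11 genes and 0.02 over all genes tested, with 4 of the 11 above 0 and 7 below. The limit on LPS reads leans the values of the set downwards, to an extent that was not tested. The median absolute log2 fold change was 0.18 in the set and 0.29 over all genes tested.

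Col5a3 had LPS values of 45.1, 29.2, 30.6 and 30.6 CPM and ferulic acid plus LPS values of 49.9, 54.1, 55.7 and 50.6 CPM. Every ferulic acid library was above every LPS library, although LPS library 1 stood well above the other 3. The means were 33.9 ± 7.50 and 52.6 ± 2.76 CPM, a ratio of 1.55 (log2 fold change 0.64, SE 0.16, adjusted p = 0.0860; 95% interval 0.30 to 0.98). The difference did not pass over all genes. It passed without ferulic acid library 2 (adjusted p = 0.0202) or 3 (0.0458), and with DESeq2 (0.00991), within a range of 0.00382 to 0.269 over 24 alternatives. Its log2 fold change was 0.54 to 0.80 in all of these. Many other genes passed in the same settings: 2670 of 14485 without library 2 and 1415 of 14501 without library 3. With DESeq2 985 of 14065 passed, against 40 of 14065 with all libraries in edgeR. The other type V collagen genes gave no comparable signal: Col5a1 had 0, 19 and 12 reads and Col5a2 0, 6 and 0 reads over the control, LPS and ferulic acid libraries. Col5a3 was also the most uniform of the set within the ferulic acid group, with an SD of log2 CPM of 0.0755 against 0.292 with LPS.

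Dusp8 lay at 19.8, 15.6, 19.7 and 26.5 CPM with LPS and at 11.2, 14.5, 14.5 and 11.4 CPM with ferulic acid plus LPS. Every ferulic acid library was below every LPS library, in TMM-scaled CPM, with a narrow gap between the nearest 2. In the deposited FPKM the groups overlapped, ferulic acid library 2 being at 2.85 and LPS library 2 at 2.57, while Col5a3 stayed separate in both units. The means were 20.4 ± 4.48 and 12.9 ± 1.84 CPM, a ratio of 0.633 (log2 fold change -0.66, SE 0.21, adjusted p = 0.112; 95% interval -1.11 to -0.21). The difference did not pass over all genes. It did without ferulic acid library 2 (adjusted p = 0.0299, edgeR) and with DESeq2 (0.0252), within a range of 0.00625 to 0.497 over 24 alternatives. Without library 2, 2670 of 14485 genes passed, and with DESeq2 985 of 14065, against 40 of 14065 with all libraries in edgeR. Dusp8 and Col5a3 have the highest transcript GC contents of the set (58.8% and 61.6%, median of the 11 genes 50.6%). The part of GC content in either difference was not tested. Gm32786, a non-coding gene that overlaps Dusp8 on the opposite strand, had 0 reads in control and LPS libraries and 6 in ferulic acid libraries.

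**Figure D2:**
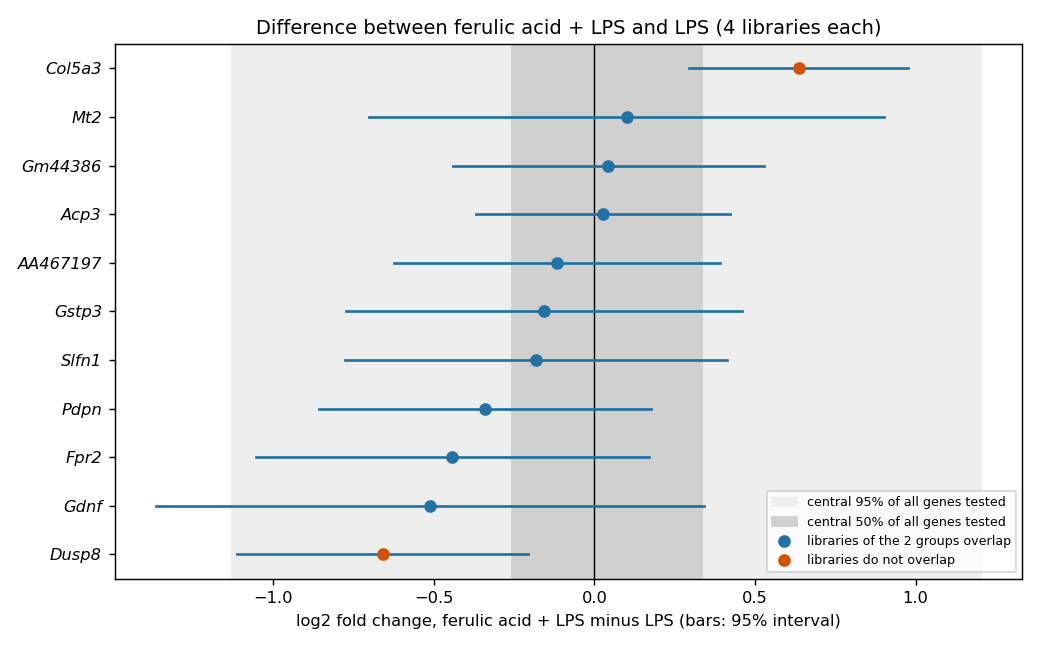
Log2 fold change of ferulic acid plus LPS minus LPS for the 11 genes (points, with 95% intervals as bars), over the central 95% and 50% of all 14065 genes tested (light and dark bands). The intervals of 9 genes cross 0, and those of Col5a3 (0.64) and Dusp8 (-0.66) do not.

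The surface genes varied by library. Fpr2 had LPS values of 10.1, 10.0, 8.35 and 8.47 CPM and ferulic acid plus LPS values of 9.20, 3.41, 5.47 and 9.22 CPM. Ferulic acid libraries 1 and 4 lay within the LPS range, and libraries 2 and 3 lay below it. The log2 fold change was -0.44 (SE 0.29, adjusted p = 0.361), and it was -1.05 with libraries 2 and 3 alone and -0.02 with libraries 1 and 4 alone. The related receptor genes Fpr1 and Fpr3 had 0 control reads, 9 and 0 LPS reads, and 28 and 4 ferulic acid reads, so nearly all formyl peptide receptor reads came from Fpr2. In GENCODE M21 Fpr3 overlaps Fpr2 on the same strand, and reads of the pair could be shared in counting.

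Pdpn showed the opposite order of libraries. Its LPS values were 7.29, 10.0, 9.96 and 14.1 CPM and its ferulic acid plus LPS values 5.62, 9.84, 9.82 and 7.31 CPM. Libraries 2 and 3 lay inside the LPS range, library 4 at its lower end and library 1 below it. The log2 fold change was -0.34, SE 0.25, adjusted p = 0.410 (95% interval -0.86 to 0.18). Clec1b, which encodes the receptor of podoplanin, had 12 reads in control (mean 0.0146 FPKM) and 0 in the other 8 libraries. It was thus near the floor in every group. Control libraries had 18550 to 19135 genes with a read, against 15387 to 16751 in the other 8, so trace reads in control alone are not particular to it. In control Pdpn itself had 5 reads.

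Acp3 had LPS values of 25.03, 20.6, 22.2 and 22.9 CPM and ferulic acid plus LPS values of 22.1, 24.9, 27.5 and 17.9 CPM. The means differed by less than the SD of either group, at 22.7 ± 1.84 and 23.1 ± 4.14 CPM (a log2 difference of 0.03, SE 0.19, adjusted p = 0.955), and the sign of the difference turned without LPS library 2 (-0.02) or without ferulic acid library 2 (-0.02) or 3 (-0.07). The tartrate-resistant acid phosphatase gene Acp5 was read in control cells already, at 3.71 ± 0.167 FPKM in control, 6.51 ± 0.288 with LPS and 4.75 ± 0.913 with ferulic acid plus LPS.

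Gdnf differed most in level between pairs of ferulic acid libraries. Its LPS values were 4.28, 4.80, 6.62 and 6.06 CPM. Its ferulic acid plus LPS values were 1.63, 5.72, 5.94 and 1.84 CPM, so that libraries 1 and 4 lay below the LPS range and libraries 2 and 3 within it. Libraries 2 and 3 averaged 3.364 times the level of 1 and 4. The log2 fold change was -0.51, SE 0.40, adjusted p = 0.453 (edgeR), and the sign depended on the libraries. It was -1.67 with libraries 1 and 4 alone and 0.10 with libraries 2 and 3 alone. These pairs were formed from the data, and 5664 of 15008 genes passed with libraries 1 and 4 alone. No p-value is therefore read from either pair. The pair of libraries with low Gdnf is the pair with the higher ribosomal protein share, whose part in the result was not tested. Of the receptor genes for this ligand family, Gfra1 had 10 reads and Ret 4 in control and neither had a read with LPS or with ferulic acid plus LPS. Both were near the floor in every group, and no change is read from them.

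Among the intracellular genes, Slfn1 lay at 3.63, 3.97, 3.94 and 3.35 CPM with LPS and at 3.83, 3.99, 3.09 and 2.204 CPM with ferulic acid plus LPS. Libraries 3 and 4 were below the LPS range, library 1 was within it and library 2 just above it (log2 fold change -0.18, SE 0.28, adjusted p = 0.725). Its neighbours Slfn2 and Slfn4 were expressed in control cells already, Slfn2 at 42.8 ± 2.60 and Slfn4 at 8.33 ± 1.12 FPKM. Both rose with LPS, to 147 ± 29.1 and 66.6 ± 7.48 FPKM (log2 fold changes 2.67 and 3.90, adjusted p = 4.5e-11 and 3.4e-12, edgeR; 1.78 and 3.00 with library size scaling). Slfn1 thus went from no reads to a level far below that of its neighbours.

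The redox and metal genes were spread widely after ferulic acid. Mt2 had LPS values of 9.98, 5.67, 7.98 and 5.21 CPM and ferulic acid plus LPS values of 8.18, 2.47, 7.62 and 12.7 CPM. Library 2 was below the LPS range and library 4 above it, and the means did not differ beyond the spread (log2 fold change 0.10, SE 0.38, adjusted p = 0.903), the sign turning without ferulic acid library 4 (-0.25) or LPS library 4 (-0.03). Mt1, the adjacent metallothionein gene, was read in control cells at 65.7 ± 6.47 FPKM and rose to 110.2 ± 12.8 FPKM with LPS (log2 fold change 1.65, SE 0.18, adjusted p = 2.8e-07, edgeR; 0.75 with library size scaling). An antisense gene over Mt2, Gm45774, had 90, 61 and 63 reads in control, LPS and ferulic acid libraries, and without a stated strand setting reads of such pairs cannot be told apart.

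Gstp3 lay at 5.01, 4.21, 3.52 and 4.03 CPM with LPS and 2.36, 3.38, 5.22 and 4.00 CPM with ferulic acid plus LPS, the latter reaching both below and above the LPS range (log2 fold change -0.16, SE 0.29, adjusted p = 0.775). Its sign turned without ferulic acid library 1 (0.01). The near relative Gstp1 was read in all groups, at 3.39 ± 0.580, 1.83 ± 0.246 and 1.93 ± 0.578 FPKM in the same order of groups (control, then LPS, then both agents), while Gstp2 had 4, 1 and 0 reads. The log2 fold change of Gstp1 with LPS was 0.0084 (adjusted p = 0.979, edgeR) with TMM and -0.89 (adjusted p = 0.00397) by library size, so its direction depends on the scaling. After LPS the level of Gstp3 per length was therefore above that of Gstp1. Reads could be shared among these similar genes, and all 3 are uncertain in that respect.

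AA467197 had LPS values of 28.3, 25.5, 21.9 and 16.2 CPM and ferulic acid plus LPS values of 26.7, 12.8, 16.7 and 28.6 CPM. Libraries 1 and 4 were high and libraries 2 and 3 low, with library 2 below the LPS range and library 4 just above it. The log2 fold change was -0.12, SE 0.24, adjusted p = 0.803, and its sign turned without library 2 (0.05). The counts are of the host transcript, and the microRNA inside it was not measured.

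Gm44386 lay at 17.5, 20.4, 24.3 and 15.1 CPM with LPS and 27.7, 17.8, 17.7 and 16.6 CPM with ferulic acid plus LPS. Library 1 was above the LPS range and the other 3 were within it. The log2 fold change was 0.04, SE 0.23, adjusted p = 0.936, and the sign turned without LPS library 1 (-0.0025) or 4 (-0.06) or ferulic acid library 1 (-0.15). Its nearest protein-coding neighbours, Pcbp1 and C87436, had fewer LPS reads than control reads (19130 against 53495, and 384 against 2052).

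**Figure D3:**
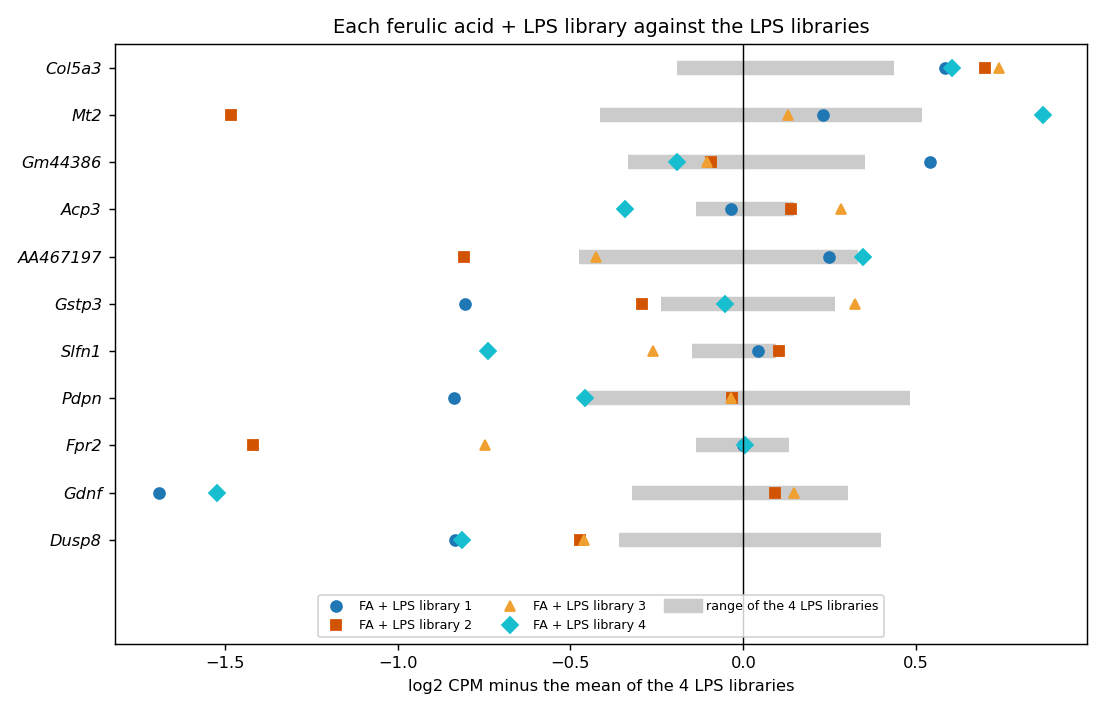
Log2 CPM of each ferulic acid plus LPS library minus the mean of the 4 LPS libraries, by gene, with the range of the LPS libraries as a grey bar. For Gdnf libraries 1 and 4 lie far left of the bar (-1.69 and -1.52) and 2 and 3 on it, and for Fpr2 libraries 2 and 3 lie left of it (-1.42 and -0.75).

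The set did not move as a block from library to library. Of the 11 genes, 4, 5, 3 and 4 lay below the LPS range in ferulic acid libraries 1 to 4, and 2, 2, 3 and 3 lay above it. Over all genes tested, 31.6%, 27.4%, 17.7% and 34.8% lay below it in the same libraries, and 32.5%, 28.9%, 16.7% and 34.6% above. The median difference of the 11 genes from the LPS mean was 0.00, -0.09, -0.04 and -0.19 on the log2 scale in libraries 1 to 4. In 9 of the 11 genes the SD of log2 CPM was larger in the ferulic acid than in the LPS group, against 74.6% of all genes tested, and Col5a3 and Dusp8 were the exceptions. Its median over the set was 0.29 with LPS and 0.39 with ferulic acid plus LPS, against 0.24 and 0.40 over all genes tested.

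Some genes took opposite positions in the same libraries. Libraries 2 and 3 averaged 0.482, 0.482 and 0.534 times the CPM of libraries 1 and 4 for Mt2, Fpr2 and AA467197. For Gdnf, Pdpn, Gstp3, Acp3, Dusp8 and Slfn1 the same ratio was 3.364, 1.52, 1.35, 1.31, 1.28 and 1.17. For Gm44386 it was 0.801. Col5a3 was least divided, at 1.09. These ratios describe 4 libraries whose division comes from the data and not from the labels, and they carry no test.

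**Figure D4:**
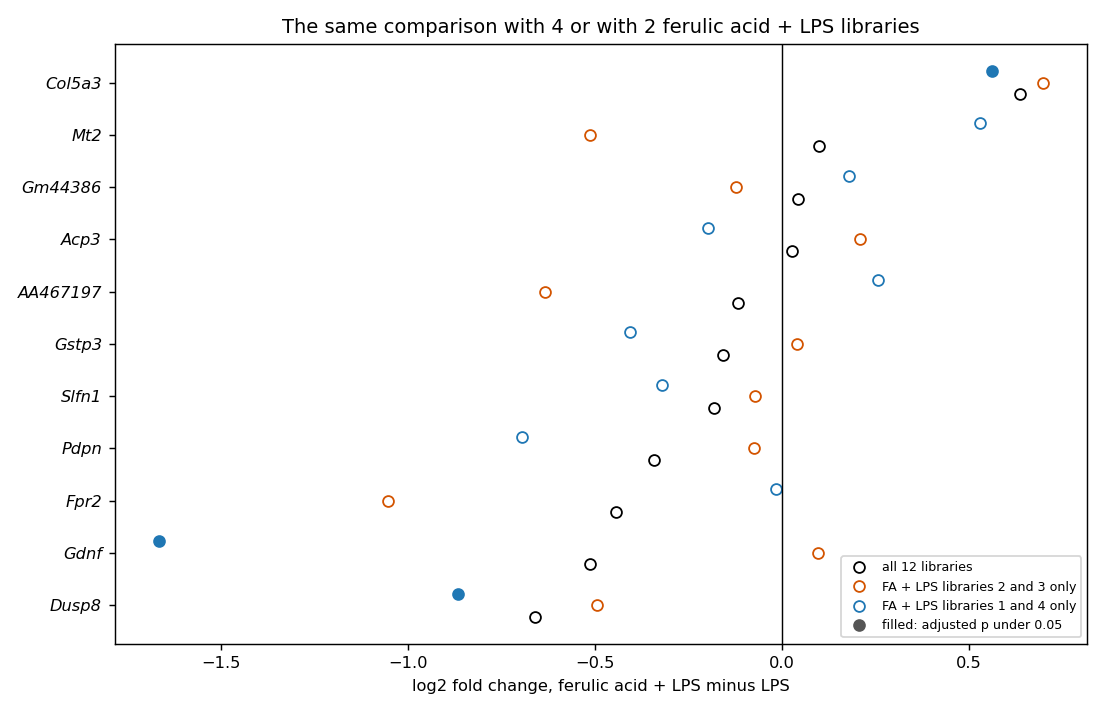
Log2 fold change of ferulic acid plus LPS minus LPS for each gene with all libraries (black), with ferulic acid libraries 2 and 3 only (orange) and with libraries 1 and 4 only (blue), filled where adjusted p was under 0.05. Col5a3 stays right of 0 and Dusp8 left of 0 in all 3 fits, and Gdnf moves from -1.67 to 0.10. The pairs were formed from the data, and 5664 of 15008 genes passed with libraries 1 and 4 only. Filled points of the pairs are therefore not read as tests.

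For relatives of the 11 genes and for pathway lists, both chosen with results known, changes with LPS depend on scaling. With TMM 35.6% of all genes tested rose with LPS and 38.3% fell (median log2 fold change -0.10). With library size alone, an alternative added after seeing the data, 17.5% rose and 59% fell (median -0.99), and a change smaller than about 1 on the log2 scale can differ in direction between the scalings. The counts that follow are with TMM, each with that by library size.

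Of 18 other dual-specificity phosphatase genes tested, 9 rose and 6 fell with LPS (9 and 8 by library size). Dusp4 had the highest level per length among them after LPS and rose from 13.3 ± 0.709 to 106 ± 21.2 FPKM (log2 fold change 3.89, adjusted p = 3.4e-11, edgeR; 3.00 by library size). With ferulic acid plus LPS it stood at 62.3 ± 20.7 FPKM (log2 fold change -0.78, adjusted p = 0.0647), lower in direction as Dusp8 was and likewise not called. Relatives, ligands and receptors of 9 of the 11 genes came to 31 tested genes. None of them passed in edgeR between the LPS groups, while 9 did at an unadjusted p under 0.05, DESeq2 called 3, voom with library weights 6 and limma on FPKM 0. Over all genes tested the shares were 23% unadjusted, 7% with DESeq2 and 24.2% with voom, so that the relatives' counts lay near the background.

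Of 22 tested genes of the late NF-kB-dependent TLR4 response, a list that holds Fpr2, 19 rose and 1 fell with LPS (18 and 3 by library size). Of these, 1 fell with ferulic acid plus LPS: Nos2, the inducible nitric oxide synthase, at 315 and 169 CPM (log2 fold change -0.90, SE 0.18, adjusted p = 0.0487, edgeR), where 0.199% of all genes fell. That value lies just under the threshold. Leaving out any 1 control library left 1 called gene among all genes. At an unadjusted p under 0.05 in edgeR 5 of the 22 passed, and DESeq2 called 4 and voom 7. For this and the lists that follow, the shares over all genes are again 23%, 7% and 24.2%, and no list is called particular from its counts. Of 27 rapidly induced genes, 19 rose and 4 fell with LPS (17 and 7). None passed after ferulic acid, 12 did at an unadjusted p under 0.05, and DESeq2 called 5 and voom 8. The smallest p-values were those of the transcription factor gene Atf3 (log2 fold change -0.68, adjusted p = 0.0582) and Nfkbid, a nuclear IkB protein (-0.80, 0.0673).

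Of 19 matrix, hyaluronan and adhesion genes, the list nearest to Col5a3, 13 rose and 3 fell with LPS (9 and 4). Plau, a plasminogen activator, was the 1 that fell after ferulic acid, with means of 18.0 and 9.86 CPM (-0.87, SE 0.14, adjusted p = 0.0476, edgeR), opposite in direction to Col5a3. In that list 4 passed unadjusted, and DESeq2 called 2 and voom 5. Of 16 secreted growth factors and ligands, 10 rose and 2 fell with LPS (10 and 5). None passed after ferulic acid (4 at an unadjusted p under 0.05, 0 with DESeq2, 4 with voom). The placental growth factor gene Pgf had a log2 fold change of -1.58 (adjusted p = 0.120, edgeR) and Vegfa -0.46 (0.141).

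Of 18 nucleotide, adenosine and lipid mediator receptors, Fpr2 included, 10 rose and 6 fell with LPS (7 and 7). None passed after ferulic acid in edgeR (5 unadjusted, 2 with DESeq2, 5 with voom). The platelet-activating factor receptor gene Ptafr was at -1.15 (adjusted p = 0.0768) and the prostaglandin receptor gene Ptger4 at 0.48 (0.127). Of 20 solute carriers, 13 rose and 1 fell with LPS with TMM, but 7 rose and 8 fell by library size, so that list has no direction that holds under both. None passed after ferulic acid (11 unadjusted, 5 with DESeq2, 10 with voom). The glucose transporter gene Slc2a1 was at -0.42 and Slc4a7 at 0.72 (both adjusted p = 0.101, edgeR). Of 13 eicosanoid and steroid enzymes, 5 rose and 7 fell with LPS (3 and 8). None passed after ferulic acid (5 unadjusted, 2 with DESeq2, 4 with voom). The cyclooxygenase gene Ptgs2 was at 0.67 (adjusted p = 0.105, edgeR) and Pla2g5 at -0.35 (0.133). With limma on FPKM no gene of the 7 lists was called between the LPS groups, Nos2 and Plau included. Over all genes, edgeR called 40 with all libraries, 2 with library size scaling and 1 without any 1 control library. Nos2 and Plau therefore cannot both hold when a control library is left out.

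In structure the genes had little in common beyond their silence at rest. Lengths implied by the deposited values ran from 531 bases (Gm44386) to 7330 bases (Acp3), with a median of 1817 against 2615 over all genes in the table. Transcript GC content ran from 41.8% (AA467197) to 61.6% (Col5a3), with a median of 50.6% against 49.7% over genes with a mean of at least 10 reads. The promoter windows held between 1 (Fpr2) and 34 (Dusp8) CpG dinucleotides, with a median of 11 against 7 over all windows. Several sit beside genes that control cells express, such as Slfn1 beside Slfn2, Mt2 beside Mt1 and AA467197 beside Gatm, which had 23395 control reads against 2 in AA467197.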

How the data were processed

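Read counts per gene for 12 libraries were deposited by the authors as whole numbers, with no normalization, per the file headers. FPKM values were deposited beside them, per the file headers. For each gene, the library with the most reads gave a whole-number gene length within 0.01 bases, from the FPKM, the count and the library total. Named in the submitters' processing notes are build GRCm39, edgeR 3.36.0, DESeq2 1.34.0, HISAT2 2.2.1, featureCounts 2.0.6 and fastp 0.23.4. Their order, the annotation and the strand setting are not given in the sources used here.

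The members and lists were chosen with earlier results of these data known. All 12 libraries were fitted in R 4.3.3 with edgeR 4.0.16 (quasi-likelihood test; limma 3.58.1 for the limma fits), scaled by TMM and modelled by group alone, after filterByExpr, which kept 14065 genes and left out 11127 with 0.0421% of reads. P-values were adjusted by Benjamini-Hochberg over all genes tested. DESeq2 1.42.0 was run as an alternative. Each SE was derived from the log2 fold change and its F value. Values in all libraries were due for the 8 members with the highest FPKM after LPS, any called member, and the 6 with the largest rise and the 6 with the largest fall, which took in all 11. For each list the 2 called members with the largest change were due, or the 2 with the smallest p where none passed. Relatives named beside a member were chosen after the members were known. Alternatives covered scaling, tool, filter, unit, a replicate block and libraries left out. Counting intervals are exact binomial at 95%. No pair of libraries within a group agreed within sampling noise (chi-square per gene of 11.6 or more), so none was treated as a repeat deposit of another, which does not show separate cultures. The test was also run on simulated counts, with the outcome not reported here.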

Additional observations from a re-analysis of the deposited data

Results flagged for a closer look

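A value far from the other 3 of its group was looked for in 28 groups of 4 libraries. In the 22 LPS and ferulic acid groups there were 2, where chance gives about 1 in 20 groups. Col5a3 stood at 45.1 CPM in LPS library 1 against 29.2 to 30.6 CPM in the other LPS libraries, which is still below the lowest ferulic acid value of 49.9 CPM. Gm44386 stood at 27.7 CPM in ferulic acid library 1 against 16.6 to 17.8 CPM in the other 3. A further 3 are control libraries with the only reads of a gene, which stand apart by construction and are not set against that rate: Gm44386 at 0.0413 CPM (3 reads, library 3), Mt2 at 0.0377 CPM (2 reads, library 4) and Acp3 at 0.0344 CPM (2 reads, library 1), each against 0 in the others and under the floor of 3 counts or at it.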

How the results depend on the processing

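The sign of the difference between the LPS groups held in all 24 alternatives for Col5a3 and Dusp8, with calls in 6 and 4 of them, and in all 23 that gave a value for Pdpn, Fpr2 and Slfn1, with 0 calls. With 1 library left out, log2 fold changes ran from -0.30 to 0.0527 for AA467197, -0.0688 to 0.13 for Acp3, -0.25 to 0.39 for Mt2, -0.15 to 0.18 for Gm44386 and -0.36 to 0.00757 for Gstp3. With voom weights AA467197 was at 0.10 and Acp3 at -0.0291, and without ferulic acid libraries 2 and 3 they were at 0.26 and -0.20. Without libraries 1 and 4 Mt2 was at -0.51, Gm44386 at -0.12, Gdnf at 0.10 and Gstp3 at 0.0409. Mt2 was at -0.0796 with the replicate block, -0.0561 with log2(FPKM + 1) and -0.0754 with log2(FPKM + 0.1). The cause was not tested.

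Of the 11 genes 1 was called with no low-count filter (Col5a3), 2 with DESeq2, 3 with voom weights, 3 without libraries 2 and 3, and 0 to 2 with 1 library left out. Their median log2 fold change was 0.0421 with the filter of 10 CPM, which kept 5 of them, and -0.25 to -0.0628 with 1 library left out. Over all genes 40 were called, against 985 with DESeq2, 3400 with voom weights, 719 with no filter, 71 with 10 CPM, 2 with library size scaling, 0 with both LPS groups fitted alone, 1 and 0 with log2(FPKM + 1) and log2(FPKM + 0.1), 7 without libraries 1 and 4, 5664 without libraries 2 and 3, and 0 to 2670 with 1 left out (2670 without library 2, 1415 without library 3). Leaving out any 1 control library, although control is not part of this contrast, left 1 called gene each time. Same-numbered libraries did not deviate together (r from -0.20 to 0.084), and the replicate block called 0 genes. With LPS, 5003 genes rose and 5381 fell with TMM, and 2467 rose and 8305 fell by library size, an alternative added after seeing the data. The rule gave 5 genes at 0 control reads, 21 at up to 10, 20 at 50 or more LPS reads and 7 at 200 or more.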
